A study of Oncorhynchus mykiss with 43 samples.

Results

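Transcripts for proteins of the spliceosome and its RNA-binding partners were followed through 8 cDNA clones of the 9023 on the array. The clones were taken by name, as those the study labels small nuclear ribonucleoprotein (snRNP) Sm D2 (clones 1RT116G12_C_D06 and tcay0032.j.11), snRNP B' (1RT89L22_D_F11), NHP2-like protein 1 (tcac0004.b.05), a U5 snRNP component (tcbk0020.k.20), SR splicing factor 2 (tcac0003.f.09), RNA-binding protein with serine-rich domain 1, RNPS1 (tcay0010.j.15), and heterogeneous nuclear ribonucleoprotein (hnRNP) A0 (tcay0017.h.15). The study drew these clones from transcripts that differed between the same fish, so that the differences given here are a description of them and not independent evidence. All 8 clones had a value in at least 16 of the 43 fish.

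Fast muscle from beneath the dorsal fin was sampled from yearling rainbow trout of a spring strain. The 5 groups were 8 fish deprived of food for a month, and fish of that fasted stock fed again on a ration above the usual one, with 9 fish taken after 4 days of feeding, 9 after 7 days, 8 after 11 days and 9 after 36 days. Every fish gave 1 nylon array, probed with cDNA that carried 33P. The groups were sampled one after the other while the water grew colder, so that time since refeeding, temperature and season cannot be told apart, and no fish fed throughout was among the groups used here. The deposited values are linear intensities. By the study's methods they were corrected for the amount of cDNA in the spot and divided by the median of the array. They serve to compare a clone between fish. The listed values did not share a median, which ran from 2.04 (a fish at 4 days) to 3.63 (a fish at 36 days, the array with fewest values). The lower end of the listed values also differed between arrays. Between 1441 and 2616 clones had a value on an array. The table names clones and not genes, and the muscle identity of the samples was therefore not checked against markers. In bulk muscle RNA, fewer cells of a type and less RNA per cell cannot be told apart.

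Introns are removed from pre-mRNA by the spliceosome, which is built from snRNPs. Each holds a small nuclear RNA and proteins of its own, and most have a ring of Sm proteins. SR proteins and hnRNPs bind the pre-mRNA itself and influence which splice sites are used, and RNPS1 belongs to the complex left at exon junctions. These roles are best known from mammals and yeast. The splicing machinery is used in all cells that make mRNA.

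All 8 clones were seen in more of the fish refed for 4, 7 or 11 days than of the fasted fish or of the fish refed for 36 days. As a background, all clones with a value in some but not all of the fish compared were counted. Of these, 51.3%, 52.0% and 40.7% were seen in more of the fish at 4, 7 and 11 days than of fasted fish. With these groups pooled, 54.2% were seen in more of the fish than when fasted, and 64.9% in more than at 36 days. Over the 8 clones, a positive value was listed in 23.4% of the cells of fasted fish (15 of 64), and this share was 83.3% after 4 days (60 of 72), 81.9% after 7 days (59 of 72), 87.5% after 11 days (56 of 64) and 34.7% after 36 days (25 of 72). The same shares were 46.9%, 47.9%, 48.2%, 46.7% and 43.3% over all clones listed with a value for any fish. For the 2660 clones whose mean value lay in the range of the means of these 8 clones they were 41.9%, 43.5%, 44.4%, 42.4% and 36.9%. These shares average over many clones, some seen in more and some in fewer fish after refeeding. They do not show the spread between single clones. The larger differences between groups in the 8 clones are no independent evidence, since the clones were chosen as differing between the same fish.

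**Figure D1:**
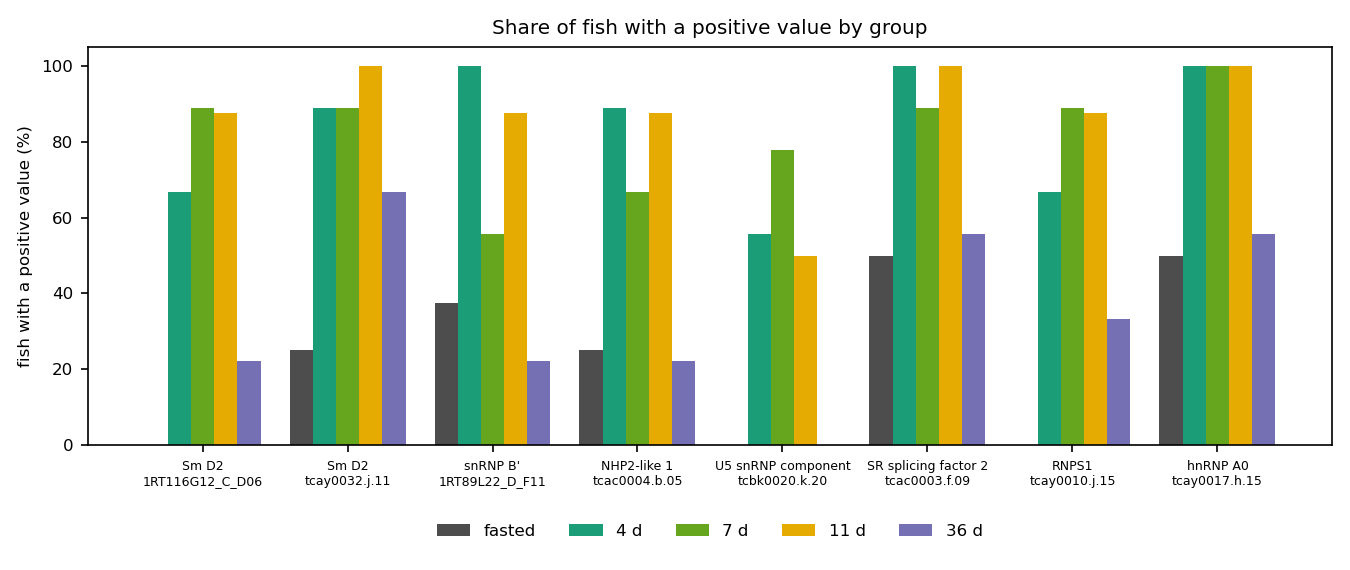
Share of fish with a positive value (vertical axis, percent) for each of the 8 clones in the 5 groups, 8 or 9 fish a group. A missing bar stands for 0 fish. In each clone the bars at 4, 7 and 11 days are above those of fasted fish, and the bar of fasted fish or of fish at 36 days is the lowest.

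A single fasted fish had 0 to 4 of the 8 clones (median 1.5). The number was 3 to 8 at 4 days and at 7 days, and 5 to 8 at 11 days, with a median of 7 in all 3 groups, and it was 0 to 5 at 36 days (median 3). Fish with all 8 clones were found at 4, 7 and 11 days only. The ranges of the early refed fish and of the other fish met at 3 to 5 clones. The number of values on an array also varied between fish, and its part in the result was not tested. When the 5 arrays with the fewest values were left out (1 of fasted fish, 2 at 4 days and 2 at 36 days), the share of cells with a value was 26.8% when fasted, 92.9% after 4 days, 81.9% after 7 days, 87.5% after 11 days and 41.1% after 36 days.

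**Figure D2:**
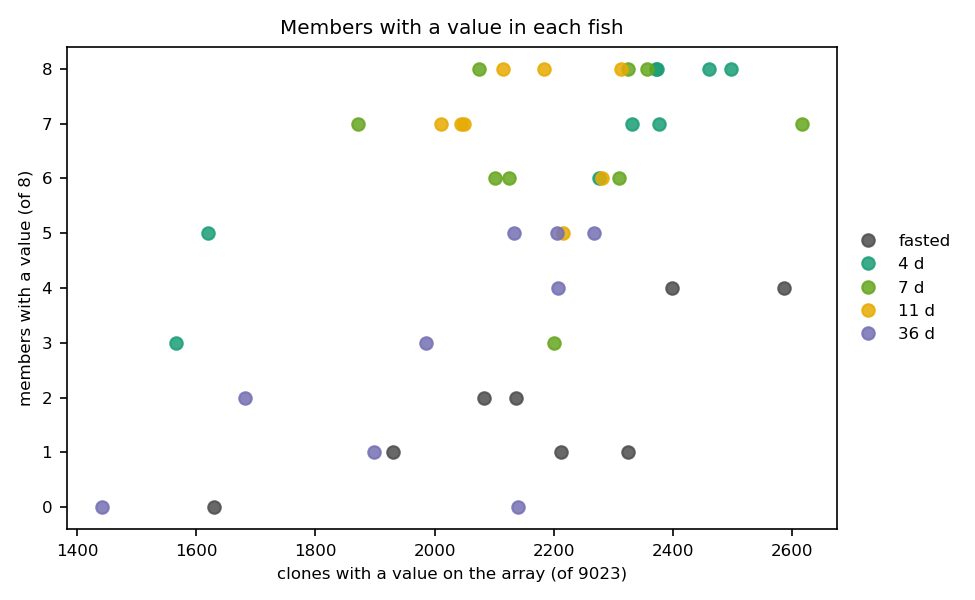
Each point is a fish, with the number of clones that had a value on its array (horizontal axis) and how many of the 8 splicing clones had one (vertical axis), coloured by group. Over all arrays, whatever their number of values, fasted fish and fish at 36 days had 0 to 5 of the 8 clones. Fish at 4, 7 and 11 days had 3 to 8.

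The Sm proteins form the ring that most of the spliceosomal snRNPs share, and Sm D2 is one of its core subunits. Clone 1RT116G12_C_D06 had no value in any of the 8 fasted fish (95% Clopper-Pearson interval 0 to 36.9%), but one in 6 of 9 fish at 4 days, 8 of 9 at 7 days, 7 of 8 at 11 days and 2 of 9 at 36 days. Its normalized intensity was 0.869 to 1.29 (median 1.02) at 4 days, 0.836 to 1.39 (median 1.20) at 7 days and 0.918 to 1.30 (median 1.07) at 11 days. At 36 days the 2 fish with a value stood at 0.633 and 0.839. The lower of these values lay under all 21 values of the fish refed for 4, 7 or 11 days, and the higher one lay among the lowest of them.

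The other Sm D2 clone, tcay0032.j.11, had a value in 2 of 8 fasted fish, 8 of 9 fish at 4 days, 8 of 9 at 7 days, 8 of 8 at 11 days and 6 of 9 at 36 days. Intensities were 0.809 and 0.907 in the fasted fish and 0.751 to 1.06 (median 0.839) at 36 days. They were 1.04 to 1.41 (median 1.19) at 4 days, 0.935 to 1.16 (median 1.07) at 7 days and 0.857 to 1.22 (median 1.10) at 11 days. All 8 values at 4 days and all 8 at 7 days were above both fasted values, whereas at 11 days 6 of 8 were. Of the 6 values at 36 days, 5 were below the lowest value at 4 days and also below the lowest at 7 days, and 3 were below the lowest at 11 days. Both Sm D2 clones had a value in 22 fish and neither had one in 10 fish, so that they agreed in 32 of 43 fish. In 10 fish only tcay0032.j.11 had a value, and in 1 fish only 1RT116G12_C_D06 did.

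In the 22 fish with both values, the log2 levels of the Sm D2 clones had a Pearson's r of 0.47 (permutation p = 0.0259, two-sided). Spearman's rho was 0.27 (permutation p = 0.216). Without the 2 fish farthest from the median of 1RT116G12_C_D06, r was lower, at 0.29 (permutation p = 0.22). Taken as deviations from the group means r was 0.35 in 20 fish (permutation p = 0.121). These were fish at 4, 7 and 11 days, and the 2 fish at 36 days with both values were left out. The parts of the group means and of these 2 fish in the lower r were not separated. Within the groups at 4, 7 and 11 days r was 0.62 (6 fish), 0.52 (7 fish) and 0.10 (7 fish). None of the 8 forms of this correlation that were computed had a Benjamini-Hochberg adjusted permutation p under 0.05, the value for all fish being 0.0691. As a description, the median r with the 949 clones compared was 0.06 for 1RT116G12_C_D06 and 0.09 for tcay0032.j.11. Of these clones, 93.3% had an r with 1RT116G12_C_D06 below that of the 2 Sm D2 clones, and 87.1% had one with tcay0032.j.11.

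For snRNP B', another protein of the Sm ring, 3 of 8 fasted fish, 9 of 9 at 4 days, 5 of 9 at 7 days, 7 of 8 at 11 days and 2 of 9 at 36 days had a positive value. A 0 was listed in 1 fish at 7 days and 1 fish at 11 days, and was taken as missing. Intensities were 1.87, 2.31 and 3.33 in the fasted fish, 2.79 to 4.13 (median 3.42) at 4 days, 2.08 to 3.98 (median 3.02) at 7 days, 1.76 to 3.20 (median 2.60) at 11 days, and 1.82 and 1.87 at 36 days. The fasted values overlapped with those of each group refed for 4, 7 or 11 days. The 2 values at 36 days were below all values at 4 and 7 days but lay within the range at 11 days.

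NHP2-like protein 1 binds kink-turns in RNA, both in a spliceosomal snRNP and in the box C/D particles that guide the methylation of ribosomal RNA. Its clone had a value in 2 of 8 fasted fish, 8 of 9 at 4 days, 6 of 9 at 7 days, 7 of 8 at 11 days and 2 of 9 at 36 days. Intensities were 0.783 and 0.857 in fasted fish and 0.845 and 0.912 at 36 days. They were 1.18 to 1.74 (median 1.43) at 4 days, 0.822 to 1.81 (median 1.20) at 7 days and 0.915 to 1.48 (median 1.26) at 11 days. All values at 4 and 11 days were above those of fasted fish and of fish at 36 days, and at 7 days 5 of 6 were above both fasted values.

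The U5 snRNP, which holds the exons during both steps of splicing, was represented by a clone that was seen after 4, 7 or 11 days of refeeding alone. It had a value in 0 of 8 fasted fish (95% Clopper-Pearson interval 0 to 36.9%), 5 of 9 fish at 4 days, 7 of 9 at 7 days, 4 of 8 at 11 days and 0 of 9 at 36 days (0 to 33.6%). Its intensity was 0.545 to 0.831 at 4 days, 0.567 to 0.727 at 7 days and 0.566 to 0.716 at 11 days, and the ranges of the 3 groups overlapped. The median of these values stood at the percentile 6.92 of the values of its own array (range 1.18 to 13.6), the lowest such median among the 8 clones. Arrays of fasted fish had a lowest listed value of 0.221 to 0.569 and a 5th percentile of 0.567 to 0.957, so that a signal of the size seen after refeeding lay close to the lower end of what was listed in fasted fish. The same held at 36 days, where the lowest listed value was 0.285 to 0.691 and the 5th percentile 0.606 to 1.21. Whether the empty cells of this clone had to do with its low signal was not tested. No fold change can be given against fasted fish or against 36 days for this clone.

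SR splicing factor 2 belongs to the serine- and arginine-rich proteins that bind exonic enhancers. Its clone had a value in 4 of 8 fasted fish, 9 of 9 at 4 days, 8 of 9 at 7 days, 8 of 8 at 11 days and 5 of 9 at 36 days. Intensities were 1.35, 1.42, 1.69 and 1.78 in the fasted fish and 1.20, 1.36, 1.46, 1.56 and 1.64 at 36 days. They were 2.17 to 2.73 (median 2.50) at 4 days, 2.05 to 3.22 (median 2.33) at 7 days and 1.48 to 2.61 (median 2.25) at 11 days. All 9 values at 4 days and all 8 at 7 days were above every value of fasted fish and of fish at 36 days, and at 11 days 7 of 8 were above every fasted value.

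RNPS1, which activates splicing and marks exon junctions, had no value in the 8 fasted fish (95% Clopper-Pearson interval 0 to 36.9%). It had one in 6 of 9 fish at 4 days, 8 of 9 at 7 days, 7 of 8 at 11 days and 3 of 9 at 36 days. Intensities were 1.26 to 1.82 (median 1.54) at 4 days, 0.920 to 1.79 (median 1.38) at 7 days and 1.00 to 1.36 (median 1.23) at 11 days, and 1.01, 1.08 and 1.14 at 36 days. The 3 values at 36 days were below all values at 4 days and inside the ranges at 7 and 11 days. Its lowest listed value of 0.920 was above the 5th percentile of the listed values on 7 of the 8 arrays of fasted fish. At 36 days this 5th percentile was 0.606 to 1.21. Whether the empty cells of RNPS1 had to do with its signal was not tested.

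The clone for hnRNP A0, a protein known in mammals to bind AU-rich RNA, was the one with most values, 35 of 43 fish. All 26 fish refed for 4, 7 or 11 days had a value, against 4 of 8 fasted fish and 5 of 9 fish at 36 days. Intensities were 0.706, 0.716, 0.766 and 0.833 in fasted fish and 0.766, 0.912, 0.940, 0.963 and 1.05 at 36 days. They were 0.972 to 1.76 (median 1.32) at 4 days, 1.03 to 1.78 (median 1.43) at 7 days and 0.977 to 1.53 (median 1.27) at 11 days. The 26 early refed fish were all above the fasted fish with a value, and 4 of the 5 values at 36 days were below the lowest value of each of the groups at 4, 7 and 11 days.

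**Figure D3:**
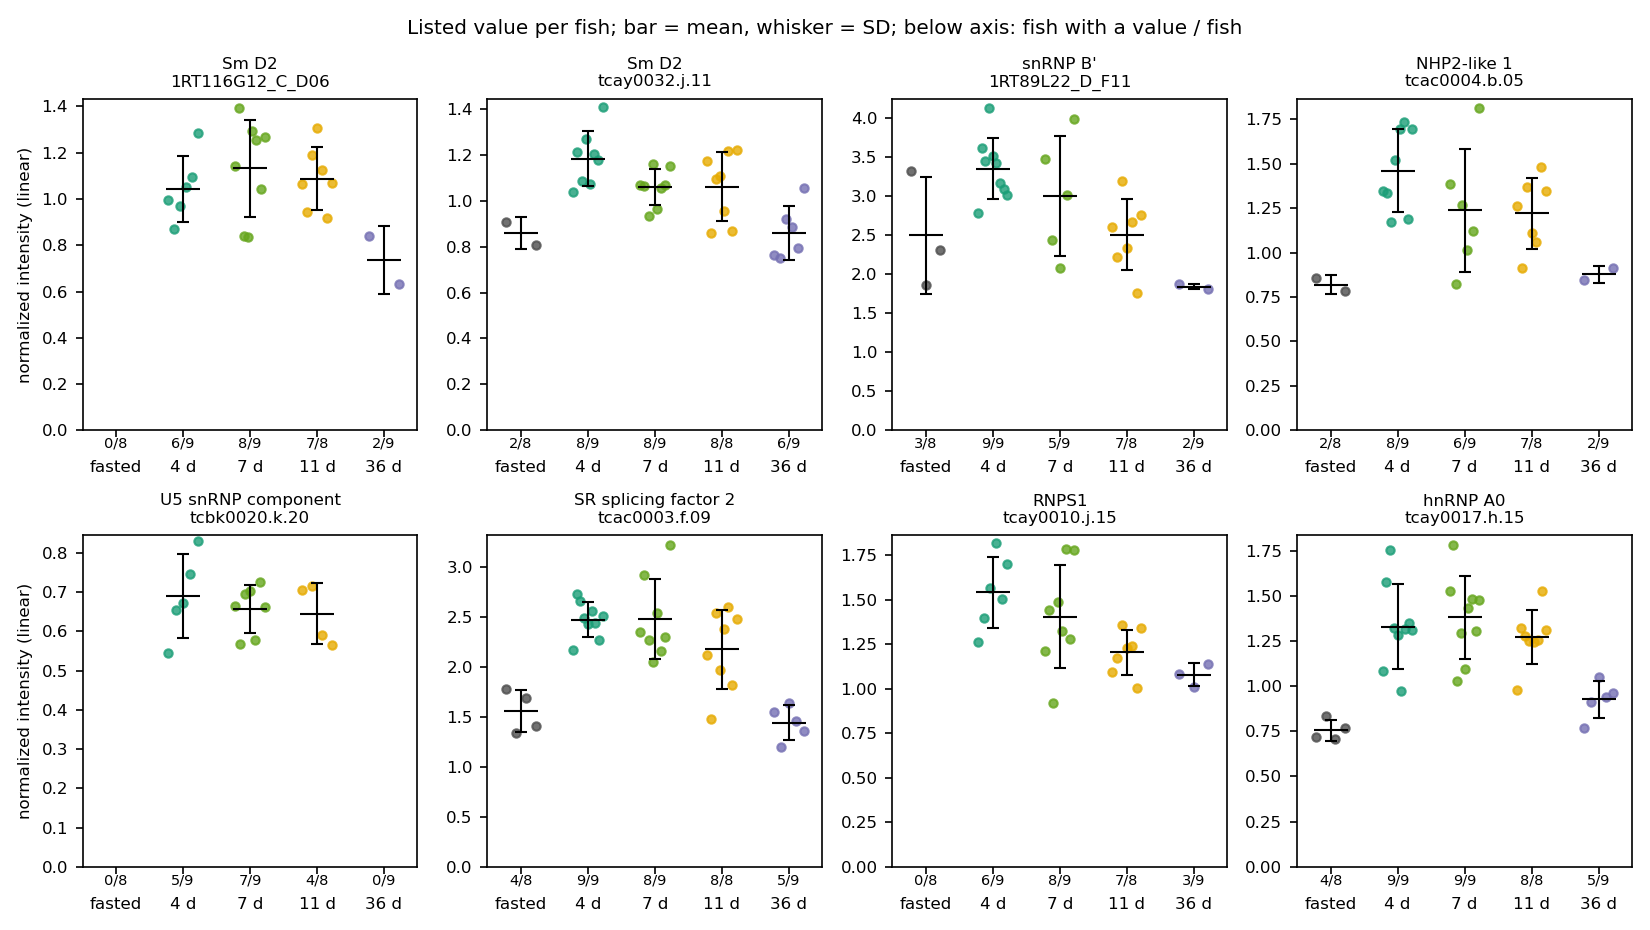
Normalized intensity (vertical axis, linear, from 0) of the 8 clones in each fish with a positive value, by group, with the mean (bar) and SD (whisker) of the fish with a value. The numbers under each group are fish with a value and fish in the group. In hnRNP A0 all 26 points at 4, 7 and 11 days are above the 4 of fasted fish, and Sm D2 clone 1RT116G12_C_D06, the U5 component and RNPS1 have no point in fasted fish.

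Whether more fish had a value after refeeding was tested with Fisher's exact test (two-sided), adjusted over all clones testable in the comparison, in 4 comparisons that share the fasted fish. None of the 8 clones passed an adjusted p of 0.05 against fasted fish at 4, 7 or 11 days, nor did any of the 7 testable at 36 days. The background was 0% of 3060 clones after 4 days, 0.0644% of 3106 after 7 days, 0% of 2951 after 11 days and 0% of 3054 after 36 days. At an unadjusted p under 0.05 in Fisher's exact test, 8 of 8 clones had a value in more fish after 4 days, 5 of 8 after 7 days, 4 of 8 after 11 days and 0 of 7 after 36 days. Of all clones tested, 3.01%, 3.93%, 2.54% and 2.32% did so. The lowest values were reached at 7 days by 1RT116G12_C_D06 and RNPS1, each with 8 of 9 against 0 of 8 fish (Fisher's exact test, p = 0.000411, adjusted p = 0.0913).

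The fish at 4, 7 and 11 days were then pooled, a choice made after these values had been seen. Sm D2 clone 1RT116G12_C_D06 and RNPS1 each had a value in 21 of 26 early refed fish against 0 of 8 fasted fish (Fisher's exact test, p = 7.09e-05, adjusted p = 0.0173), and 2 of the 8 clones were thus called against a background of 0.492%. Both calls held when any 1 of the 34 fish was left out (highest adjusted p = 0.0421, Fisher's exact test) and without the 5 arrays with the fewest values (adjusted p = 0.0232). The other Sm D2 clone, tcay0032.j.11, had a value in 24 of 26 against 2 of 8 fish and was not called (Fisher's exact test, adjusted p = 0.0626). With 1 fish left out, tcay0032.j.11 was called in 4 of 34 refits. At an unadjusted p under 0.05 all 8 clones had a value in more early refed than fasted fish, against 4.34% of all clones. Against 36 days, none of the 8 was called at an adjusted p under 0.05 (background 0.0819%), and 7 of 8 had an unadjusted p under 0.05 (background 5.76%). The clone outside these 7 was tcay0032.j.11, with 24 of 26 against 6 of 9 fish (Fisher's exact test, p = 0.0946).

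Levels were compared on the log2 scale with limma over all fish. None of the 8 clones had a value in 5 fish of every group, the minimum first set, and the changes given below therefore needed values from at least 2 fish in each of the 2 groups compared. They concern the fish with a value only, and a fasted mean stands for 2 to 4 fish. For hnRNP A0 the fasted values stood at percentiles 8.24 to 14.1 of the values of their own arrays. These percentiles were 4.45 and 11.9 for NHP2-like protein 1, and 9.84 and 16.1 for tcay0032.j.11. For SR splicing factor 2 they were 30.5 to 37.3, and for snRNP B' 44.4 to 59.6. The part of such low fasted values in the changes was not tested. Against fasted fish 5 clones could be tested (not 1RT116G12_C_D06, the U5 component or RNPS1), and the comparisons share these fasted fish. The 5 clones had a median log2 change of 0.67 after 4 days, 0.55 after 7 days, 0.47 after 11 days and 0.00 after 36 days, against -0.02, -0.04, 0.00 and -0.04 over all clones tested.

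At the threshold of an adjusted p under 0.0001, 1 of 5 clones, hnRNP A0, rose at 4, 7 and 11 days. After 4 days of feeding its log2 change was 0.80 (standard error 0.13, 1.74-fold, limma adjusted p = 2.24e-05). After 7 days it was 0.86 (0.13, 1.81-fold, limma adjusted p = 5.08e-06), and after 11 days 0.75 (0.13, 1.68-fold, limma adjusted p = 4.77e-05). The background of clones higher at this threshold was 1.53%, 2.39% and 3.37%. At 36 days 0 of 5 clones were called (background 3.94% higher), 0 of 5 had an unadjusted limma p under 0.05 (background 41.2% in either direction), and hnRNP A0 had a log2 difference of 0.29 (limma adjusted p = 0.121). All 3 calls of hnRNP A0 were lost with quantile normalization (limma adjusted p 0.0331, 0.00281 and 0.0311) and in fits of only the 2 groups compared (0.000389, 0.000197 and 0.000202), and leaving out the dimmest 25% of clones removed this clone from the test. Without fasted fish 3, 7 or 8 the adjusted p rose above 0.0001 at 4 and 11 days (0.000144 to 0.000424), and at 11 days also without 11-day fish 9 or 10 (0.000135 and 0.000113), with array weights (0.00015) and with the replicate number as a block (0.000148).

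At a limma adjusted p under 0.05, 4 of the 5 clones were higher at 4 days (background 6.28%), 2 of 5 at 7 days (9.59%) and 2 of 5 at 11 days (13.3%). At 7 and 11 days these were hnRNP A0 and SR splicing factor 2. The log2 change of SR splicing factor 2 was 0.67 (standard error 0.12, limma adjusted p = 0.000168) after 4 days, 0.66 (0.13, 0.000192) after 7 days and 0.47 (0.13, 0.00613) after 11 days. NHP2-like protein 1 stood at 0.82 (standard error 0.21, limma adjusted p = 0.00804) and Sm D2 clone tcay0032.j.11 at 0.46 (0.14, 0.0263) at 4 days. For snRNP B' the log2 difference was 0.46 at 4 days (limma adjusted p = 0.101) and 0.02 at 11 days (0.953).

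**Figure D4:**
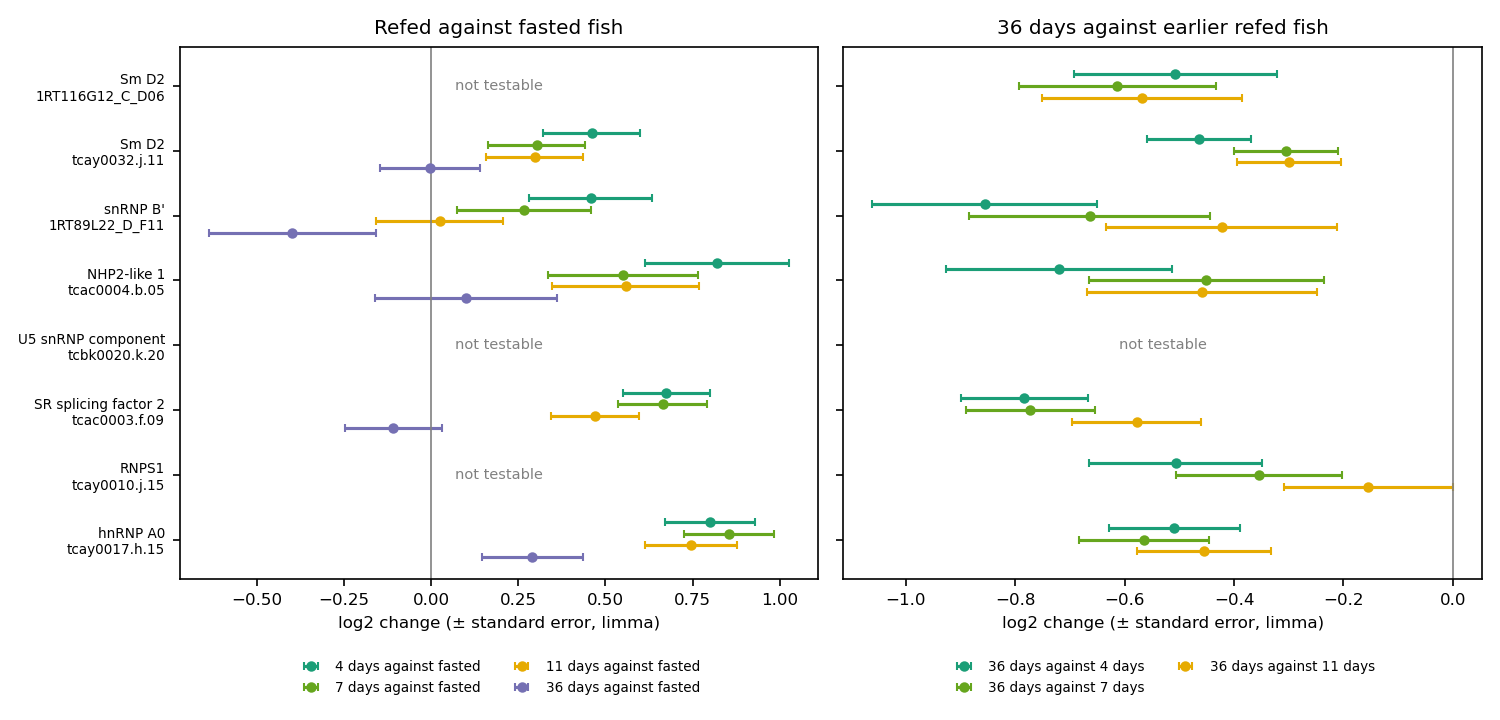
Log2 change of each clone (horizontal axis) with its standard error in limma, for refed against fasted fish (left) and for 36 days against the earlier refed groups (right). Clones without 2 values in both groups are marked as not testable. The 5 clones testable against fasted fish lie between 0.02 and 0.86 at 4, 7 and 11 days, and the 7 testable at 36 days against earlier groups lie between -0.86 and -0.15.

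Between 4, 7 and 11 days all 8 clones could be compared, and none was called by limma at an adjusted p under 0.0001 (background 0% for 7 against 4 days, 0.233% for 11 against 4 days and 0% for 11 against 7 days). At an unadjusted limma p under 0.05 there were 0 of 8 clones for 7 against 4 days (background 8.44%), 3 of 8 for 11 against 4 days (17.8%) and 0 of 8 for 11 against 7 days (4.53%). A 2-class SAM at a false discovery rate of 0.01%, run on clones present in 5 or more fish of both groups, called 0 of 8, 0 of 7 and 0 of 7 clones in these comparisons, against a background of 1.13%, 3.97% and 0.0535% of all clones it tested. The 3 clones with the unadjusted p were snRNP B' (log2 difference -0.43), RNPS1 (-0.35) and SR splicing factor 2 (-0.21), each lower at 11 than at 4 days.

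From 4, 7 or 11 days to 36 days, the 7 clones that could be tested (not the U5 component) all had lower means. Their median log2 change was -0.51 against 4 days, -0.56 against 7 days and -0.45 against 11 days, and -0.06, -0.04 and -0.06 over all clones tested. The share of all clones with lower means was not counted. SR splicing factor 2 was called at an adjusted p under 0.0001, with a log2 change of -0.78 (standard error 0.12, limma adjusted p = 6.52e-06) against 4 days and -0.77 (0.12, 2.02e-05) against 7 days. The call was thus made for 1 of 7 clones against 4 days (background 1.59%), 1 of 7 against 7 days (1.18%) and 0 of 7 against 11 days (0.495%), where SR splicing factor 2 had a log2 difference of -0.58 (limma adjusted p = 0.00121) and 5 of 7 clones an unadjusted p under 0.05 (background 20.5%). At a limma adjusted p under 0.05, 7 of 7 clones were lower than at 4 days (background 14.4%), 5 of 7 than at 7 days (11.5%) and 4 of 7 than at 11 days (11.4%). The call against 4 days held when any 1 fish with a value was left out, whereas the call against 7 days was lost without 36-day fish 6 or 9 (limma adjusted p 0.000153 and 0.000118). The call against 7 days was also lost when each array was centred on clones that no array lacked (limma adjusted p = 0.000133), in the fit of only the 2 groups (0.000631) and with the replicate number as a block (0.000261).

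At 36 days hnRNP A0 was lower by a log2 of -0.51 (limma adjusted p = 0.00165) than at 4 days and by -0.56 (0.00123) than at 7 days. Sm D2 clone tcay0032.j.11 differed by -0.46 (0.000534) and -0.31 (0.0224), and the differences of the other 4 clones rest on 2 or 3 fish at 36 days. SAM, on the same terms, could test 3 clones (SR splicing factor 2, hnRNP A0 and tcay0032.j.11) for 36 days. With 1 set of 100 permutations it called 2 of the 3 against each of 4, 7 and 11 days, against a background of 14.8%, 7.96% and 6.43% of all clones it tested. Over 10 other sets it called 2 to 3 of the 3 against 4 days (and 262 to 284 of 1778 clones in all), 2 against 7 days (128 to 161 of 1758) and 2 against 11 days (92 to 135 of 1727).

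Ordered by mean log2 level, the 3 groups refed for 4, 7 or 11 days stood above fasted fish and fish at 36 days in every clone with at least 2 values in those groups. The share of all clones with this order was not counted, and some of these means rest on 2 or 3 fish. For snRNP B' the means at 11 days (1.30) and in fasted fish (1.28) were close (limma adjusted p = 0.953). For hnRNP A0 the order was 7 days (0.45), 4 days (0.39), 11 days (0.34), 36 days (-0.12) and fasted (-0.41). For SR splicing factor 2 it was 4 days (1.30), 7 days (1.29), 11 days (1.10), fasted (0.63) and 36 days (0.52). No groups that were next to each other in these orders differed at a limma adjusted p under 0.0001 in any of the 8 clones. Fasted fish and fish at 36 days could be compared in 5 clones, with log2 differences from -0.40 (snRNP B') to 0.29 (hnRNP A0).

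The levels of the 8 clones were also compared among themselves over fish, as a description. Over the 28 pairs of clones, with 12 to 31 fish each, Pearson's r of the log2 values had a median of 0.51 and was positive in 25 pairs. For deviations from the group means, with the same or fewer fish in each pair, r had a median of 0.33. It was positive in 22 pairs and ran from -0.63 (U5 component and hnRNP A0, 16 fish) to 0.72 (NHP2-like protein 1 and SR splicing factor 2, 20 fish). The part of the groups in these values was not tested. The 2 clones of the array most like hnRNP A0, among 796 with at least 35 shared fish, were 1RT85P10_D_H05 and 1RT115H03_B_D02, each with r = 0.83 over 35 fish, against a median r of 0.02. The points share arrays and groups, and these clones are not given a gene name here.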

How the data were processed

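Each of the 43 arrays held the fast muscle RNA of 1 fish. Per the study's methods the authors quantified spots with BZScan, excluded spots whose vector oligonucleotide signal was under a fixed multiple of background, divided each signal by that oligonucleotide signal and then by the array's median, and deposited these linear intensity values. This exclusion of spots with little cDNA may have left cells empty. Whether it accounts for all empty cells was not tested, and no other rule for them is given in the sources used here.

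Of 9216 rows, 193 control rows were left out. Empty cells and zeros (127 and 2 of 344 cells of the 8 clones) were taken as missing. Log2 values were fitted in limma 3.58.1 (R 4.3.3, statmod 1.5.0) with 1 mean per group, for 10 comparisons, with Benjamini-Hochberg adjustment over all clones tested and calls at an adjusted p under 0.0001. Because the minimum of 5 fish in every group admitted none of the 8 clones, a minimum of 2 fish in each group compared, listed as another setting, was used, a choice made after this was seen. Presence of a value was tested by Fisher's exact test. Correlations used 100000 permutations. Scripts were tested on simulated data. Plots were drawn with matplotlib 3.10.9.

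The clones described, and the 2 clones most like the one with most values, were chosen with earlier results of these data known. The alternatives were SAM, quantile normalization, centring, an offset of 0.1, the dimmest 25% of clones left out, fits of 2 groups, array weights, intensity trend, the replicate number as a block, the number of values as a covariate, and leaving out the 5 arrays that listed fewest values. Their combination with the lower minimum of fish, the pooled presence tests and leaving out single fish were chosen after seeing the data. The correlation of same-numbered fish of different groups had a median of -0.0078, against -0.0004 for other pairs. It was over 0.1 in 31 of 82 same-numbered pairs. Numbers were not taken to pair fish. Precision is limited by the number of arrays. The limma p-values refer to a spread between fish that was pooled over the groups fitted and shared in part across clones. Each group was sampled once, and a spread between samplings is not covered. Other splicing genes were not counted, since the table names no genes, and no sequences of the clones were used here.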

Additional observations from a re-analysis of the deposited data

How the results depend on the processing

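The minimum of 5 fish in every group left 0 of the 8 clones to test, and the count of 0 called clones under it says nothing of them. A lower minimum of 2 fish gave 1 called clone of 5 at 4, 7 and 11 days against fasted fish (background 1.53%, 2.39% and 3.37% higher). It gave 1 of 7 at 36 against 4 and 7 days (background 1.59% and 1.18% lower). SAM called 2 clones at 36 days against each of 4, 7 and 11 days (background 14.8%, 7.96% and 6.43%), and over 10 other sets of permutations 2 to 3 against 4 days and 2 against each of the others. Limma on only the 2 groups compared, with at least 5 fish in both, called 1 of 3 clones at 36 against 4 days. No share over all clones is given for this fit, so that its count cannot be set against a background.

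With at least 2 fish and an adjusted p under 0.05, 4, 2 and 2 of 5 clones were called at 4, 7 and 11 days against fasted fish (background 6.28%, 9.59% and 13.3% higher). At 36 against 4, 7 and 11 days the counts were 7, 5 and 4 of 7 (background 14.4%, 11.5% and 11.4% lower). The 1 clone called at 4, 7 or 11 days against fasted fish, hnRNP A0, fell to 0 called clones with quantile normalization, with fits of 2 groups, and without the dimmest 25% of clones, a step that removed the clone itself. At 11 days the count was also 0 with array weights (adjusted p = 0.00015) and with the replicate number as a block (0.000148). The 1 clone called at 36 against 7 days, SR splicing factor 2, fell to 0 with centring (0.000133), with fits of 2 groups (0.000631) and with the replicate block (0.000261); the cause was not tested. The replicate block changed no other call of a clone. The correlation of the Sm D2 clones lost its permutation p under 0.05 within groups (r = 0.35, fish at 36 days left out) and without 2 fish (r = 0.29). No value with a call changed its direction, and changes of direction between uncalled values were not counted. Of 744 values of single clones under these alternatives, 704 kept their side of the threshold, most of them values without a call. These include the refits without a single fish, run for called clones only. A call was lost in 21 of the 744 values and gained in 19, all of the latter under the looser threshold. Calls could be lost only in the few clones and comparisons that had one. A clone without a value is not thereby shown to be absent, and why cells were empty was not tested.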
